A study of Mus musculus with 40 samples.

Results

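The genes described here are 32 mouse genes for chaperones of the endoplasmic reticulum (ER) and for the unfolded protein response, followed by gene symbol through 40 liver RNA-seq libraries. All 32 were among the 24499 symbols counted, and all 32 were among the 14355 genes with enough reads to be tested. By role they are 10 chaperones and co-factors of the ER lumen, 3 lectin chaperones or calcium-binding proteins, 4 protein disulfide isomerases, 4 sensors and transcription factors, 8 proteins of ER-associated degradation and 3 components of the translocation channel. The libraries came from adult male C57BL/6 mice, 1 animal per library, in a model in which an alcohol challenge followed a chronic diet injury. DDC, a porphyrinogenic compound mixed into the diet at 0.05% by weight, injures bile ducts and hepatocytes and causes fibrosis. Ethanol was infused through a gastric tube for no more than 28 days, at a daily dose of at most 27 g per kg of body weight.

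The 8 groups were as follows. DDC+EtOH (6 livers) had DDC and then the HFD diet with ethanol. DDC+HFD (6 livers) had DDC and then HFD without ethanol, and DDC+Cont (5 livers) had DDC and then the diet labelled BD. EtOH (4 livers), HFD (6 livers) and Control 28D (5 livers) had BD in place of DDC and then HFD with ethanol, HFD, or BD. DDC 0D (4 livers) and Control 0D (4 livers) were taken after DDC or BD with no later treatment. The labels do not spell out HFD or BD, and no group had ethanol without HFD, so ethanol was compared with HFD. Each label carries its own animal number, so the libraries were taken as separate animals.

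Proteins that enter the ER are threaded through the SEC61 channel, folded by BiP (Hspa5) and its partners, by the lectins calnexin and calreticulin and by disulfide isomerases, and those that fail to fold are sent back to the cytosol and degraded. When unfolded protein accumulates, IRE1 (Ern1), PERK (Eif2ak3) and ATF6 signal to the nucleus, and spliced XBP1, ATF6 and ATF4 raise chaperone, degradation and amino acid genes. Hepatocytes carry a heavy load of this work because they secrete most plasma proteins, and their chaperone genes follow feeding and the hour of the day. Xbp1 splicing, the cleavage of ATF6 and the phosphorylation of PERK cannot be read from counts per gene.

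The libraries held 7197940 to 26398100 reads on genes (median 13653500). Hepatocyte markers (Alb, Apoa1, Apob, Ttr and 4 others) summed to at least 59416 CPM (reads on the gene for every 1000000 reads, after TMM scaling) in every DDC 0D liver and at least 94415 CPM in every Control 0D liver. Transcripts of the exocrine pancreas, an ER-rich organ that lies beside the liver, passed 1000 CPM over 8 marker genes in 7 libraries, of which 2 were DDC+EtOH, 3 DDC+HFD, 1 DDC+Cont and 1 HFD. These 7 are called the pancreatic libraries below, and other libraries held up to 314 CPM (DDC+HFD animal 37). Markers of B and plasma cells, the last also rich in ER, summed over 7 genes to at most 27.0 CPM in the livers of every group but HFD. The HFD livers had a lowest, median and highest sum of 4.36, 5.21 and 62.4 CPM, with Jchain, the joining chain of antibodies, at up to 41.7 CPM. The part of these cells in the results was not tested.

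Promoter sequence shows what some of these genes share besides their role. The table of RefSeq promoters on GRCm38.p6, 250 bases before to 50 after each start, held 26 of the 32 genes. The ER stress response element (ERSE), spelled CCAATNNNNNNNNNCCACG and searched on both strands, was found in 9 of these 26 (34.6%), against 39 of all 32851 promoters (0.119%). The 9 were Hspa5, Hsp90b1, Dnajc3, Creld2, Calr, Canx, Pdia6, Syvn1 and Derl3. ERSE-II, spelled ATTGGNCCACG, was found in 2 of the 26 (7.69%), Herpud1 and Dnajb11, against 12 of all promoters (0.0365%). The XBP1 core TGACGTGG was in none of the 26 and in 0.676% of all promoters. The half-site CCACG, which is part of both elements, was in 84.6% of the 26 and in 32.8% of all, and CCAAT, also part of both on either strand, was in 84.6% and 37.4%. The stretches printed here are those of the genes on which the results below turn, with up to 30 bases on either side. Capitals mark the element, and where it reads CGTGG first it lies on the opposite strand to the gene.
Hspa5, chr2:34771995-34772073, plus strand: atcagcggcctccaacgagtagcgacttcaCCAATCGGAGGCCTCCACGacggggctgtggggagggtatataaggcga
Hsp90b1, chr10:86705503-86705581, minus strand: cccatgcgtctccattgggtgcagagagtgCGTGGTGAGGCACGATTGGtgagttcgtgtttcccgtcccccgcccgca
Hsp90b1, chr10:86705608-86705686, minus strand: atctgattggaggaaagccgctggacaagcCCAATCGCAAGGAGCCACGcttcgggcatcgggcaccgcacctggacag
Creld2, chr15:88819490-88819568, plus strand: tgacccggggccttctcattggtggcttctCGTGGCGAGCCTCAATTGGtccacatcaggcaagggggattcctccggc
Calr, chr8:84847045-84847123, minus strand: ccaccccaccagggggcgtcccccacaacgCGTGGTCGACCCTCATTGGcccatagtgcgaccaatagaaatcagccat
Syvn1, chr19:6046502-6046575, plus strand: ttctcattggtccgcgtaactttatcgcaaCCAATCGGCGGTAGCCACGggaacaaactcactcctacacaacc
Derl3, chr10:75893212-75893290, plus strand: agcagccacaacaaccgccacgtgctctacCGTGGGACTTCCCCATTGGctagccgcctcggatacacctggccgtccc
Herpud1, chr8:94386347-94386417, plus strand: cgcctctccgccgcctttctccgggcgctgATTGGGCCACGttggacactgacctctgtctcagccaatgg
The element began 65 bases before the start in Hspa5, 44 in Syvn1, 126 in Creld2, 156 in Derl3 and 162 in Calr, and Hsp90b1 held it at 107 and at 212 bases. The ERSE-II of Herpud1 began 52 bases before the start. A match describes the letters in the window and says nothing of whether a factor bound there. The ERSE is named for the response by which the 32 genes were listed. Its excess over all promoters is therefore not an independent result. In DDC 0D against Control 0D livers, described below, 24.5% of all genes tested were called lower. Among the 32 these were 3 of the 9 genes with an ERSE, 8 of the 17 without it and 4 of the 6 with no promoter listed.

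Levels differed widely among the genes. Per kilobase of exon, P4hb was the most abundant over the 40 livers at 619 ± 133 CPM per kb (SD), followed by Hspa5 at 298, Calr at 247 and Hsp90b1 at 234 CPM per kb. At the low end were Eif2ak3 at 6.18 and Derl3, the derlin known from secretory cells, at 1.48 CPM per kb. By the mean of each group, DDC 0D was the lowest of the 8 groups for 24 of the 32 genes. HFD was the highest for 12 and EtOH for 9. The shares of all genes for which these groups were lowest or highest are not given here, so the counts describe the 32 alone. Calu and Eif2ak3 ran the other way, with DDC 0D the highest of all groups and Control 0D the lowest.

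**Figure D1:**
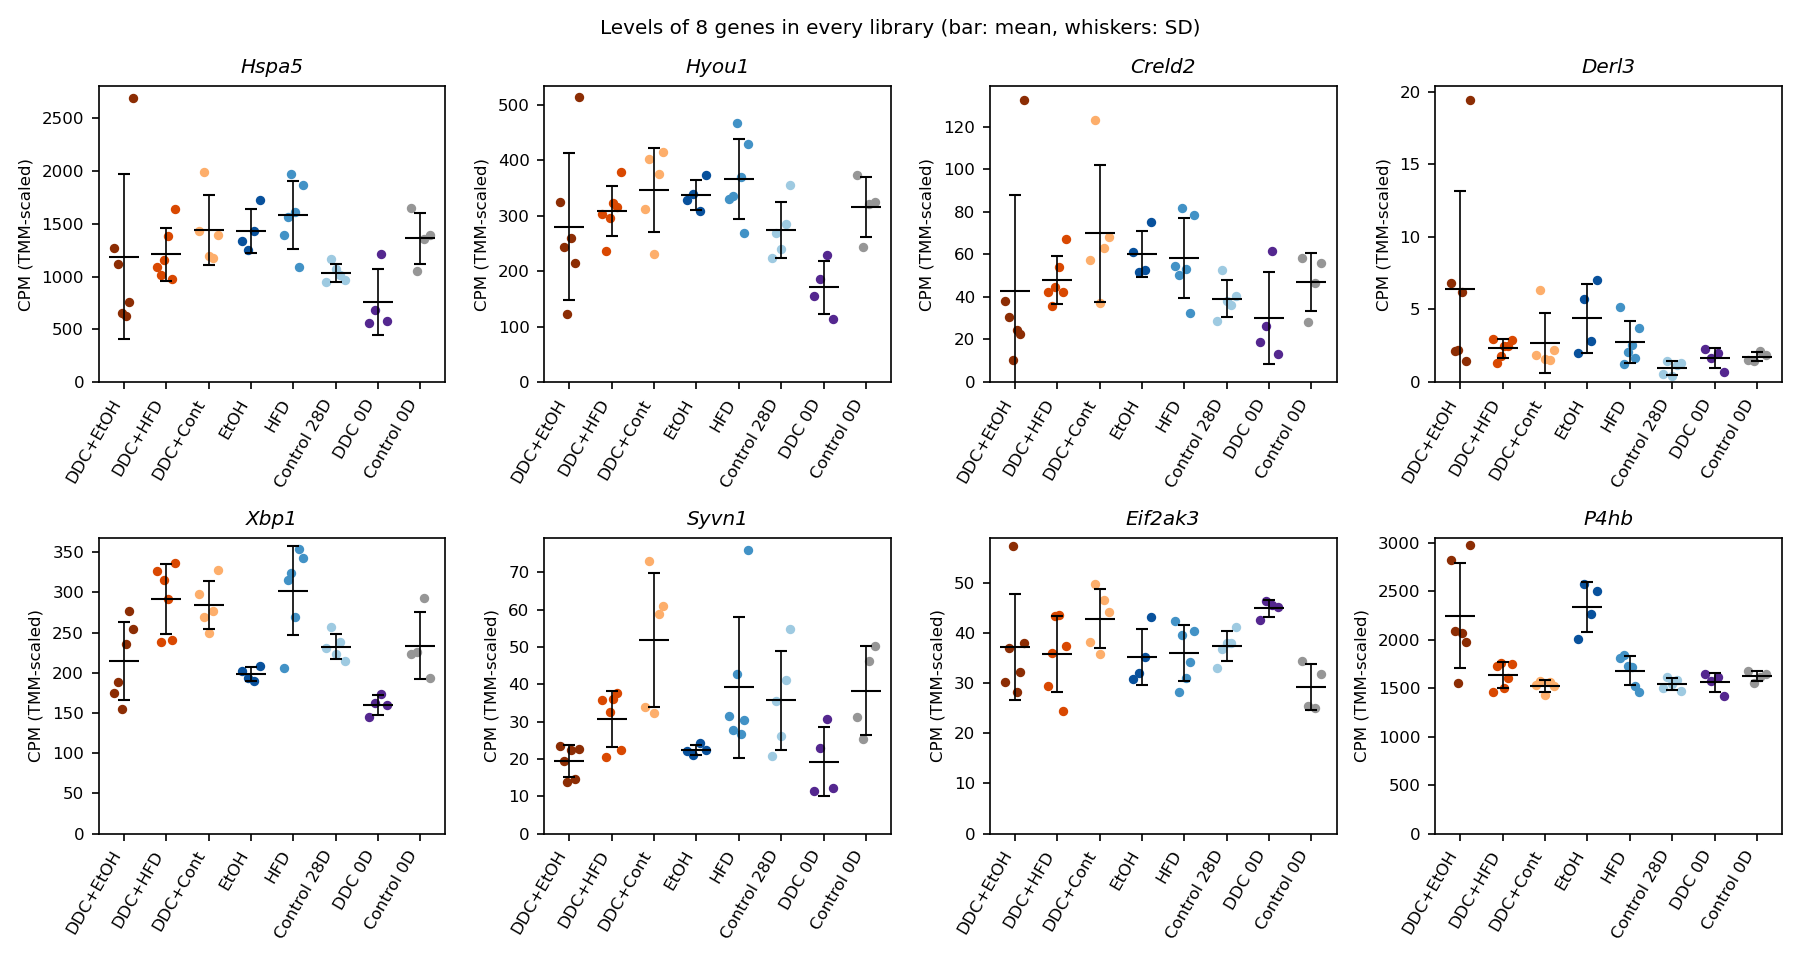
Level of 8 of the genes in every library, in CPM after TMM scaling (y axis, from 0), by group (x axis). Points are livers, the bar is the mean and whiskers are the SD. Xbp1 and Hyou1 are lowest in DDC 0D, P4hb is highest in EtOH and DDC+EtOH, and 1 DDC+EtOH liver holds 2691 CPM of Hspa5.

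The first comparison asked what DDC feeding does before any second treatment. In DDC 0D livers 15 of the 32 genes were lower and 2 were higher than in Control 0D livers (edgeR quasi-likelihood test, Benjamini-Hochberg adjusted p under 0.05 over all genes). The median log2 fold change of the 32 was -0.34, against 0.01 over all genes tested. Both medians are after TMM scaling, with factors of 1.22 to 1.23 in DDC 0D livers and 0.942 to 0.989 in Control 0D livers. The fall is thus relative to other genes and not to all reads. DDC moved much of the transcriptome, since 52% of all genes were called in this comparison, 24.5% as lower and 27.5% as higher. The 32 were therefore called about as often as other genes (53.1%), with 46.9% called lower and 6.25% called higher. In whole liver, fewer cells of a type and less RNA per cell cannot be told apart.

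Among the 10 lumen chaperones and co-factors, 5 fell in DDC 0D livers and none rose. Hspa5, the master chaperone BiP, read 556, 577, 685 and 1215 CPM in DDC 0D livers, against 1052, 1353, 1398 and 1645 CPM in Control 0D livers. Animal 7 lay inside the control range while the other 3 DDC 0D livers lay below it. The log2 fold change was -0.84 ± 0.30 (SE; adjusted p = 0.0171 by edgeR). Hspa5 no longer passed when Control 0D animal 1 (adjusted p = 0.0567) or DDC 0D animal 5 (0.0617), 6 (0.0504) or 8 (0.0662) was left out.

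Hyou1, the nucleotide exchange factor GRP170 that serves BiP, read 114, 156, 185 and 229 CPM in DDC 0D livers, against 244, 321, 324 and 373 CPM in Control 0D livers. The groups did not overlap, and the log2 fold change was -0.88 ± 0.25 (adjusted p = 0.00363 by edgeR). Manf, a secreted factor that binds BiP, read 43.0, 44.0, 58.6 and 107 CPM in DDC 0D livers, against 82.2, 110, 117 and 130 CPM in Control 0D livers. Here the groups overlapped through the same animal 7, and the call was marginal (log2 fold change -0.80 ± 0.33, adjusted p = 0.0443 by edgeR). It was lost without any of Control 0D animals 1, 3 and 4 or DDC 0D animals 5, 6 and 8, where the adjusted p was 0.073 to 0.142. Hspa13, an ATPase related to HSP70, and Dnajb11, the BiP co-chaperone ERdj3, also fell, by 0.57 and 0.53 on the log2 scale. Dnajb11 lost its call without Control 0D animal 1 (0.0602) or DDC 0D animal 6 (0.0602) or 8 (0.0871).

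The remaining lumen genes did not pass. Hsp90b1, the HSP90 of the ER, read 569, 711, 792 and 859 CPM in DDC 0D livers, against 789, 924, 961 and 998 CPM in Control 0D livers (log2 fold change -0.32 ± 0.20, adjusted p = 0.178 by edgeR). Dnajb9, the co-chaperone ERdj4 that restrains IRE1, read 26.7, 34.1, 44.0 and 55.3 CPM in DDC 0D livers, against 36.5, 51.3, 57.4 and 58.1 CPM in Control 0D livers. The values of both genes overlapped between DDC 0D and Control 0D livers. Dnajc3, the co-chaperone p58IPK that restrains PERK, read 280, 282, 340 and 358 CPM in DDC 0D livers, against 365, 397, 403 and 418 CPM in Control 0D livers, without overlap and without a call (-0.33 ± 0.18, adjusted p = 0.118). Sdf2l1, a partner of ERdj3, read 16.7, 17.3, 24.1 and 28.3 CPM in DDC 0D livers, against 22.2, 28.5, 28.5 and 28.5 CPM in Control 0D livers. Creld2, an ER-resident protein known as a stress-induced gene, read 13.1, 19.0, 26.4 and 61.4 CPM in DDC 0D livers, against 28.1, 46.6, 55.7 and 58.0 CPM in Control 0D livers. The highest Creld2 value was again animal 7, above every control. Without that animal the Creld2 log2 fold change was -1.27 (adjusted p = 0.0406 by edgeR), against -0.65 ± 0.49 (adjusted p = 0.283) with it.

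Of the 8 degradation genes, 7 were called lower in DDC 0D livers. Sel1l, the scaffold of the HRD1 ubiquitin ligase, read 127, 131, 149 and 184 CPM in DDC 0D livers, against 241, 278, 279 and 282 CPM in Control 0D livers. Every DDC 0D liver lay below every control, and the log2 fold change was -0.87 ± 0.16 (adjusted p = 1.39e-05 by edgeR). Syvn1, the ligase HRD1 itself, read 11.3, 12.3, 23.0 and 30.7 CPM in DDC 0D livers, against 25.4, 31.2, 46.3 and 50.2 CPM in Control 0D livers. Its fold change was the largest fall of the 32 (-0.98 ± 0.34, adjusted p = 0.015 by edgeR), though the groups overlapped. It lost the call without Control 0D animal 3 (0.0509) or 4 (0.064) or DDC 0D animal 5 (0.0613) or 8 (0.0681), and in a fit to the 2 groups alone (0.0641), as did Manf (0.0728).

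Herpud1, which organises the ligase, read 147, 192, 203 and 306 CPM in DDC 0D livers, against 279, 292, 373 and 483 CPM in Control 0D livers (log2 fold change -0.75 ± 0.24, adjusted p = 0.00755 by edgeR). It did not pass without Control 0D animal 4 (log2 fold change -0.56, adjusted p = 0.0616). Edem1 and Os9, lectins that pick glycoproteins for disposal, fell by 0.57 and 0.40 on the log2 scale, and Derl2 and Derl1, membrane proteins of the exit channel, by 0.63 and 0.28. Edem1, Os9, Derl1 and Derl2 did not overlap between the groups. Of the 32 genes 15 had every DDC 0D liver below every Control 0D liver, against 23.8% of all genes tested. Derl1 lost its call without Control 0D animal 1 (0.0525) or DDC 0D animal 6 (0.137). Derl3 read 0.684, 1.66, 2.02 and 2.29 CPM in DDC 0D livers and 1.44, 1.54, 1.86 and 2.16 CPM in Control 0D livers, with no call (adjusted p = 0.883 by edgeR).

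The 4 sensors and factors split. Xbp1 read 145, 159, 163 and 174 CPM in DDC 0D livers, against 193, 224, 226 and 293 CPM in Control 0D livers, with no overlap (log2 fold change -0.55 ± 0.15, adjusted p = 0.00249 by edgeR). Ern1, the kinase and RNase that splices Xbp1, read 38.0, 41.6, 43.6 and 58.3 CPM in DDC 0D livers, against 58.5, 63.9, 72.3 and 85.6 CPM in Control 0D livers (log2 fold change -0.63 ± 0.17, adjusted p = 0.0016). Both fell, and for Ern1 the gap between the groups was narrow.
Eif2ak3, the kinase PERK that slows translation, read 42.5, 45.1, 45.5 and 46.4 CPM in DDC 0D livers, against 25.1, 25.5, 31.7 and 34.3 CPM in Control 0D livers. Every DDC 0D liver lay above every control (log2 fold change 0.62 ± 0.17, adjusted p = 0.00214 by edgeR). Atf6 read 102, 104, 117 and 118 CPM in DDC 0D livers and 119, 126, 129 and 129 CPM in Control 0D livers, which do not overlap but did not pass (log2 fold change -0.19 ± 0.11, adjusted p = 0.145).

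No disulfide isomerase and no translocation gene was called in this comparison. Ssr1, a subunit of the translocon-associated complex, read 119, 138, 145 and 146 CPM in DDC 0D livers, against 152, 166, 170 and 179 CPM in Control 0D livers, without overlap (log2 fold change -0.28 ± 0.13, adjusted p = 0.0708 by edgeR). It was called under 4 alternatives, among them the fit without a low-count filter (adjusted p = 0.0345) and the one without the pancreatic libraries (0.0405). Pdia4 read 252, 278, 324 and 336 CPM in DDC 0D livers, against 370, 410, 412 and 425 CPM in Control 0D livers, without overlap and without a call (log2 fold change -0.44 ± 0.22, adjusted p = 0.0883 by edgeR). P4hb, the founding disulfide isomerase, was the gene of the 32 nearest to 0 (-0.06 ± 0.12, adjusted p = 0.723). Calr read 599, 658, 693 and 703 CPM in DDC 0D livers and 771, 802, 806 and 823 CPM in Control 0D livers (log2 fold change -0.27 ± 0.17, adjusted p = 0.181). The Calr values did not overlap, and a fit to the 2 groups alone (53.6% of all genes called) called Calr (adjusted p = 0.0191), Pdia4 (0.00329), Dnajc3 (0.0165) and Ssr1 (0.0202) lower. Canx, the membrane-bound lectin, fell by 0.32 on the log2 scale (adjusted p = 0.0115). Calu, calumenin, a calcium-binding protein of the secretory pathway, read 171, 174, 182 and 194 CPM in DDC 0D livers, against 126, 134, 136 and 140 CPM in Control 0D livers. It rose by 0.43 ± 0.08 on the log2 scale (adjusted p = 2.89e-05 by edgeR), with no overlap.

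Cell-type markers and clock genes moved with these changes. In DDC 0D livers all 8 hepatocyte markers were lower (median log2 fold change -0.65), and all 6 bile duct, 6 macrophage and 6 fibroblast markers were higher. The bile duct markers summed to 912 to 1062 CPM in DDC 0D livers, against 39.0 to 49.1 CPM in Control 0D livers. A clock score, the mean log2 CPM of Arntl, Npas2 and Clock minus that of Dbp, Tef, Hlf and Per3, ran from -2.71 to -0.622 in DDC 0D livers and from 1.12 to 2.82 in Control 0D livers. The part of cell makeup in the falls was not tested. The score did not overlap between the 2 groups, so changes with DDC and with the clock cannot be told apart. All 3 genes added in the score were called lower in DDC 0D livers. Of the 4 subtracted, 3 were called higher and 1 lower. With the clock score as a term, 9 genes were lower and 2 higher, against 43.9% of all genes called in that fit. Sel1l, Derl2, Edem1, Os9, Canx, Xbp1 and Ern1 remained lower and Calu and Eif2ak3 higher. Hspa5 then had a log2 fold change of -0.49 ± 0.38 (adjusted p = 0.318), and Hyou1 of -0.77 (adjusted p = 0.0589). Hspa13 (-0.52, against -0.57 without the term) and Dnajb11 (-0.56, against -0.53) kept folds of about the same size and lost their calls with a larger SE. Manf (-0.56), Herpud1 (-0.53), Syvn1 (-0.66) and Derl1 (-0.19) lost theirs with smaller folds, and Ssr1 (-0.45) and Sec61b (-0.57) gained calls. The median of the 32 was -0.46 with the term and -0.34 without it.

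**Figure D2:**
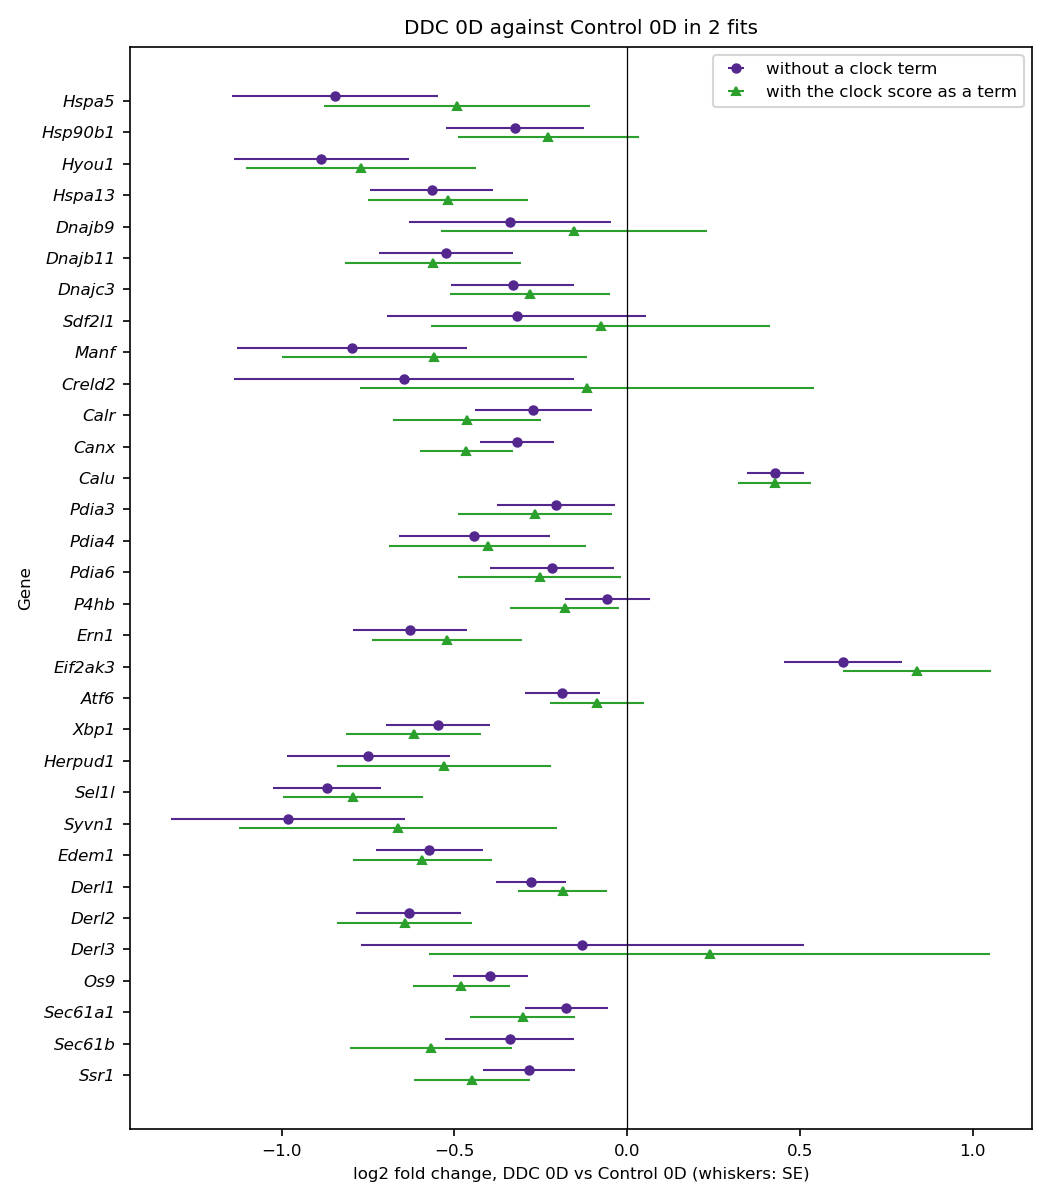
log2 fold change of each gene in DDC 0D against Control 0D livers (x axis, whiskers are the SE), without a clock term (circles) and with the clock score as a term (triangles). Most genes stay left of 0 in both fits, the whiskers widen with the term, and Calu and Eif2ak3 stay right of 0.

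Other genes of the same pathways, which are not among the 32, were read from fixed lists, in the fit to all 40 libraries only. In DDC 0D against Control 0D livers 24.5% of all genes were called lower and 27.5% higher, 52% in either direction. The lists below were called at 28.6% (cytosolic heat shock) to 60% (other sensors, proteases and CREB3 relatives) in either direction. In DDC 0D livers, 8 of 18 further degradation genes were lower and none higher (Faf2 -0.32 ± 0.07), as were 6 of 18 genes of the translocon and signal peptidase (Sec63 -0.55 ± 0.10). Of 20 genes of ER-to-Golgi carriers, 8 were lower (Lman2 -0.89 ± 0.12) and 1 higher, the retrieval receptor Kdelr3 (2.04 ± 0.31). Folding enzymes were mixed, with 9 of 26 lower (Sil1, a further BiP exchange factor, -0.62 ± 0.11) and 5 higher (Dnajc10 1.11 ± 0.14, Rcn1 1.08 ± 0.16). Genes of N-glycan processing gave 3 of 16 lower (Ganab -0.61 ± 0.08) and 2 higher. In the list of other sensors, proteases and CREB3 relatives, 3 of 15 were lower (Tmbim6 -0.78 ± 0.09, Creb3l3 -0.88 ± 0.11) and 6 higher. The largest of these was Casp12, a caspase at the ER, at 3.17 ± 0.32 (adjusted p = 3e-10 by edgeR). Targets of the PERK and ATF4 branch gave 3 of 18 lower (Atf4 -0.62 ± 0.15, Ppp1r15b -0.54 ± 0.11) and 4 higher (Atf3 3.23 ± 0.78). Cytosolic heat shock genes gave 3 of 14 lower (Hspa4 -0.38 ± 0.10) and 1 higher.

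The second question was what remained of this pattern after DDC was followed by the BD diet. In DDC+Cont livers 16 of the 32 genes were higher and 1 lower than in DDC 0D livers, where 20.2% of all genes were called higher, 23.2% lower and 43.4% in either direction. The median log2 fold change of the 32 was 0.42, against 0.00 over all genes. This comparison shares the DDC 0D livers with the one before, so its direction is not independent of it. By role, 8 of 10 lumen chaperones and 6 of 8 degradation genes rose. In the same contrast 6 of 8 hepatocyte markers were higher, and 5 of 6 bile duct, 5 of 6 macrophage and 6 of 6 fibroblast markers were lower. The part of cell makeup in these rises was not tested.
The largest rises were in Syvn1, Creld2 and Dnajb9. Syvn1 read 32.3, 33.9, 58.7, 61.1 and 73.1 CPM in DDC+Cont livers, against 11.3, 12.3, 23.0 and 30.7 CPM in DDC 0D livers (log2 fold change 1.42 ± 0.33, adjusted p = 0.00066 by edgeR). Dnajb9 read 53.5, 78.7, 83.2, 105 and 115 CPM in DDC+Cont livers, against 26.7, 34.1, 44.0 and 55.3 CPM in DDC 0D livers (1.12 ± 0.28, adjusted p = 0.00161). Syvn1 did not overlap between the groups, and Dnajb9 did so by a single liver of each. Creld2 read 37.2, 57.3, 63.2, 68.3 and 123 CPM in DDC+Cont livers (1.22 ± 0.48, adjusted p = 0.0374). Its call was lost without DDC 0D animal 5 (0.102), 6 (0.0863) or 8 (0.134) or DDC+Cont animal 25 (0.134) or 29 (0.0504), without the pancreatic libraries (0.0576) and in a fit to the 2 groups alone (0.0924). Hsp90b1 (0.47), Dnajb11 (0.46) and Ern1 (0.39) rose too, and each lost its call without any of several single libraries (adjusted p of 0.0554 to 0.166, 0.0632 to 0.134 and 0.0558 to 0.136 by edgeR, in the same order). Hsp90b1 (adjusted p = 0.0644 by edgeR) and Dnajb11 (0.0646) also lost theirs without the pancreatic libraries.
Hspa5 read 1172, 1194, 1395, 1435 and 1993 CPM in DDC+Cont livers, and 1 DDC 0D liver, at 1215 CPM, reached into that range (log2 fold change 0.92 ± 0.29, adjusted p = 0.00894 by edgeR). Xbp1 read 249, 269, 277, 298 and 328 CPM in DDC+Cont livers, above every DDC 0D liver (0.83 ± 0.15, adjusted p = 1.5e-05). Calu was the gene that fell (-0.26 ± 0.08, adjusted p = 0.00604). The clock score moved here too, at 2.26 to 2.55 in DDC+Cont livers and -2.71 to -0.622 in DDC 0D livers. These ranges do not overlap, so changes with the treatment and with the clock cannot be told apart. With the score as a term 7 genes were higher and none lower, where 31.1% of all genes were called. Syvn1 (1.07, adjusted p = 0.084), Dnajb9 (0.91, adjusted p = 0.0818) and Hspa5 (0.52, adjusted p = 0.351) were then not among them. Nor was Creld2 (0.62, adjusted p = 0.532 by edgeR), and Hsp90b1, Dnajb11, Manf, Ern1, Derl1 and Calu lost their calls as well.

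Against Control 28D livers, none of the 32 was called in DDC+Cont livers, where 1.52% of all genes were called. The median log2 fold change was 0.19, and 27 of the 32 values were positive. Hspa5 read 1172 to 1993 CPM in the 5 DDC+Cont livers, against 949, 971, 1012, 1075 and 1164 CPM in Control 28D livers. The groups did not overlap, yet the test did not pass (log2 fold change 0.48 ± 0.27, adjusted p = 0.523 by edgeR). Derl3 read 1.53, 1.58, 1.84, 2.19 and 6.33 CPM in DDC+Cont livers, against 0.405, 0.554, 1.18, 1.29 and 1.44 CPM in Control 28D livers (1.58 ± 0.60, adjusted p = 0.231). Its 6.33 CPM was in animal 25, which also had the highest Hspa5. Eif2ak3 read 35.8, 38.1, 44.1, 46.5 and 49.8 CPM in DDC+Cont livers and 32.9, 36.7, 37.9, 37.9 and 41.2 CPM in Control 28D livers, with overlap and no call (adjusted p = 0.688). Outside the 32, Casp12 was still higher in DDC+Cont livers by 1.97 ± 0.29 on the log2 scale (adjusted p = 8e-05).

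The DDC effect differed between the stages for 12 genes, tested as the DDC effect after the second treatment (DDC+Cont against Control 28D) minus the effect at 0D, where 32.1% of all genes were called, 14.5% as positive and 17.6% as negative. The difference was positive for Syvn1 (1.52 ± 0.45), Hspa5 (1.32 ± 0.40), Manf (1.31), Hyou1 (1.22), Sel1l (1.05), Herpud1 (1.03), Xbp1 (0.84), Hspa13 (0.78), Dnajb11 (0.72), Edem1 (0.69) and Derl2 (0.55), and negative for Calu (-0.30). Manf lost the call without DDC 0D animal 5 (0.0518) or 8 (0.057) or DDC+Cont animal 25 (0.0512). Dnajb11, Derl2 and Calu each lost it without any of 4 or more single libraries, with adjusted p of 0.0505 to 0.098, and Calu also without the low-count filter (0.142). Creld2, at 1.49 ± 0.66 without a call (adjusted p = 0.082 by edgeR), was called without DDC 0D animal 7 (2.13, adjusted p = 0.0137). With the clock score as a term 5 genes were called (26.6% of all genes), and Hspa5 was then at 0.95 (adjusted p = 0.14). A fit to the 4 groups alone called 26 of the 32, 24 as positive and 2 as negative, and 35.3% of all genes.

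**Figure D3:**
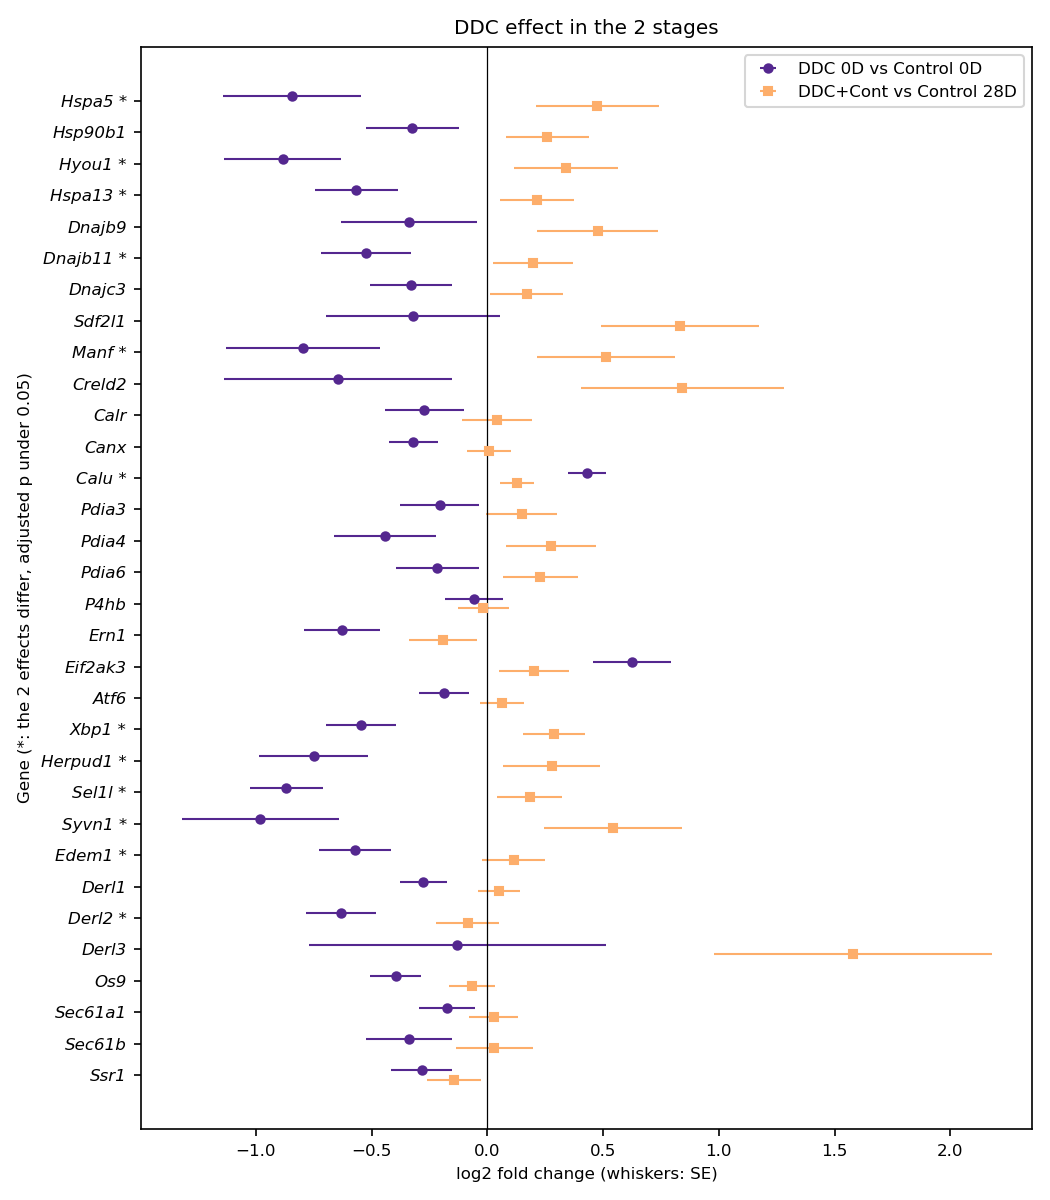
log2 fold change of each gene (x axis, whiskers are the SE) in DDC 0D against Control 0D (circles) and DDC+Cont against Control 28D (squares), with a star beside genes whose effects differed. Most circles lie left of 0 and most squares right of it or near it, and Calu and Eif2ak3 have both on the right.

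HFD without DDC raised no gene of the 32 past the threshold against Control 28D, where 0.376% of all genes were called. Of the 32 log2 fold changes 29 were positive, with a median of 0.28 against 0.00 over all genes. This contrast shares its Control 28D livers with that of DDC+Cont, so the 2 shifts are not independent. Hspa5 in HFD livers had a lowest, median and highest value of 1090, 1586 and 1974 CPM, against 949, 1012 and 1164 CPM in Control 28D livers (log2 fold change 0.61 ± 0.26, adjusted p = 0.411 by edgeR). The lowest HFD liver lay inside the Control 28D range and the other 5 above it. Sdf2l1 had 19.9, 32.0 and 44.3 CPM in HFD livers, against 14.5, 15.3 and 23.3 CPM in Control 28D livers (0.94 ± 0.33, adjusted p = 0.293). A fit to these 2 groups alone called 4 genes, Hspa5, Pdia4, Pdia6 and Sdf2l1, and 0.81% of all genes.
After DDC, HFD made no called difference (DDC+HFD against DDC+Cont, 3.4% of all genes called). The median of the 32 was 0.02, and Syvn1 had the lowest log2 fold change, with a lowest, median and highest value of 20.4, 34.1 and 37.7 CPM in DDC+HFD livers, against 32.3, 58.7 and 73.1 CPM in DDC+Cont livers (-0.76 ± 0.28, adjusted p = 0.131). The 2 groups overlapped for each of the 32, where they did not for 2.69% of all genes. A difference between the HFD effects with and without earlier DDC was called for none of the 32 and for 0% of the 14355 genes by edgeR (1087 genes at an unadjusted p under 0.05, and 1 gene by DESeq2). Hspa5 had the difference -0.86 ± 0.36 (adjusted p = 0.62).

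In livers without DDC, P4hb was called higher and Xbp1 and Edem1 lower with ethanol. These 3 genes in EtOH against HFD livers were 9.38% of the 32. Of all genes 13.5% were called, 7.84% as higher and 5.61% as lower, so the 32 were called no more often than other genes. P4hb, which is also a subunit of collagen prolyl hydroxylase and of the triglyceride transfer protein of hepatocytes, read 2006, 2271, 2509 and 2582 CPM in EtOH livers. In HFD livers its lowest, median and highest values were 1464, 1726 and 1842 CPM, below every EtOH liver. The log2 fold change was 0.48 ± 0.11 (adjusted p = 0.00272 by edgeR).
Xbp1 read 190, 193, 203 and 209 CPM in EtOH livers, against a lowest, median and highest of 206, 320 and 354 CPM in HFD livers (-0.61 ± 0.14, adjusted p = 0.00233). The EtOH values lay close together, and 1 HFD liver, at 206 CPM, overlapped them. Edem1 read 261, 268, 283 and 289 CPM in EtOH livers, against 307, 351 and 437 CPM in HFD livers, without overlap (-0.42 ± 0.14, adjusted p = 0.0436). Its call was lost without any of EtOH animals 20 to 23 or HFD animals 16 to 19 (adjusted p of 0.0514 to 0.114), with lane as a term (0.0563) and without the low-count filter (0.0531). Syvn1 had the lowest log2 fold change of the 32, with 21.2, 22.2, 22.3 and 24.3 CPM in EtOH livers, against a lowest, median and highest of 26.7, 30.9 and 76.1 CPM in HFD livers. The groups did not overlap, and edgeR gave no call (-0.80 ± 0.31, adjusted p = 0.0872), while DESeq2 did (-0.80, adjusted p = 0.0433). Hspa5 read 1249, 1332, 1429 and 1722 CPM in EtOH livers, inside the HFD range (-0.14 ± 0.27, adjusted p = 0.788). The clock score was -2.19 to 0.239 in EtOH livers and 0.857 to 2.51 in HFD livers. Here too the ranges do not overlap, so changes with ethanol and with the clock cannot be told apart. With that score as a term P4hb and Xbp1 kept their calls, and Edem1 did not (-0.43, adjusted p = 0.084).

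After DDC the same contrast, DDC+EtOH against DDC+HFD, called 5 genes (15.6% of the 32), 3 higher and 2 lower. Of all genes 16.5% were called, 8.53% as higher and 8.02% as lower, so the 32 were called about as often as other genes. P4hb had a lowest, median and highest value of 1551, 2086 and 2979 CPM in DDC+EtOH livers, against 1466, 1664 and 1761 CPM in DDC+HFD livers (log2 fold change 0.46 ± 0.10, adjusted p = 0.00125 by edgeR). Of the 6 DDC+EtOH livers 5 lay above every DDC+HFD liver. Xbp1 had 155, 212 and 277 CPM in DDC+EtOH livers, against 239, 304 and 336 CPM in DDC+HFD livers (-0.45 ± 0.12, adjusted p = 0.00974). Edem1 had 173, 247 and 354 CPM in DDC+EtOH livers, against 238, 369 and 412 CPM in DDC+HFD livers (-0.46 ± 0.13, adjusted p = 0.00858). Both overlapped between the groups. Derl1 rose by 0.28 ± 0.08 (adjusted p = 0.0165), and lost its call without DDC+HFD animal 36 (0.0533) or DDC+EtOH animal 43 (0.0519).
Derl3 had 1.46, 4.24 and 19.4 CPM in DDC+EtOH livers, against 1.28, 2.48 and 2.97 CPM in DDC+HFD livers (1.43 ± 0.48, adjusted p = 0.0357). The call rested on animal 43, without which the log2 fold change was 0.71 (adjusted p = 0.261), and it was also lost without DDC+EtOH animal 38 (0.0579) or DDC+HFD animal 32 (0.0725), 33 (0.0694) or 35 (0.0586), with lane as a term (0.114) and without the low-count filter (0.0545). Syvn1 had 13.7, 21.0 and 23.4 CPM in DDC+EtOH livers, against 20.4, 34.1 and 37.7 CPM in DDC+HFD livers, with no call (-0.66 ± 0.28, adjusted p = 0.101).
Without the 7 libraries over 1000 CPM of pancreatic transcripts, Edem1 was the gene of the 32 still called (8.83% of all genes called). P4hb (0.37, adjusted p = 0.0784 by edgeR) and Xbp1 (-0.40, adjusted p = 0.0811) kept their direction. DDC+HFD animal 37, at 314 CPM of these transcripts, stayed in that fit. In a fit to the 2 groups alone (6.02% of all genes called), P4hb (adjusted p = 0.092), Xbp1 (0.0989), Edem1 (0.132), Derl1 (0.167) and Derl3 (0.174) did not pass, and Syvn1 did (-0.66, adjusted p = 0.0464). A difference between the ethanol effects with and without earlier DDC was called for none of the 32 and for 0% of all genes by edgeR (739 genes at an unadjusted p under 0.05, and 3 genes by DESeq2). The P4hb difference was -0.02 ± 0.15 and the Xbp1 difference 0.16 ± 0.18 (adjusted p = 1 for both).

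**Figure D4:**
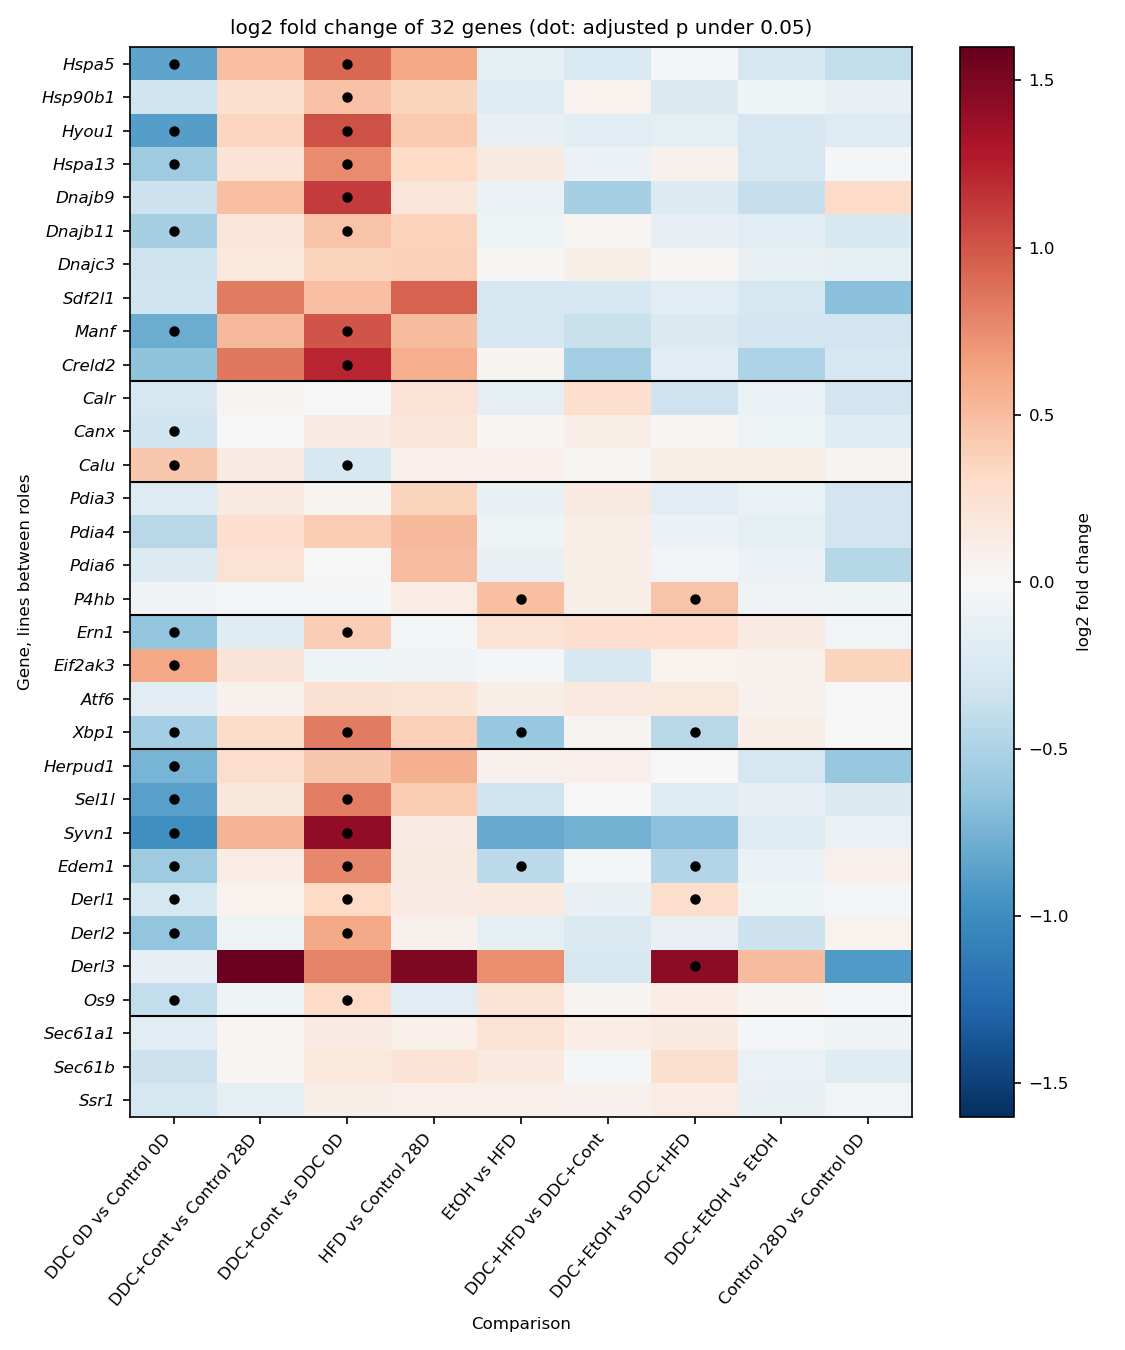
log2 fold change (colour) of the 32 genes, ordered by role from lumen chaperones at the top to translocation at the bottom, in 9 comparisons (columns). A dot marks an adjusted p under 0.05, and dots crowd the DDC 0D and DDC+Cont against DDC 0D columns while P4hb, Xbp1 and Edem1 carry dots in both ethanol columns.

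DDC+EtOH animal 43 stood apart from the other 5 livers of its group. Its Hspa5 was 2691 CPM, the highest of all 40 livers, against 628, 656, 762, 1118 and 1271 CPM in the other 5. It held the highest DDC+EtOH value of 26 of the 32 genes. The share of all genes that were highest in this liver is not given here. Its TMM factor was 0.926, against 1.00 to 1.11 in the other 5. Its clock score of 1.26 was the highest of the group, whose lowest was -2.35. The part of either in these values was not tested. Relative to the median of the other 5, Derl3 was 8.67 times as high, Creld2 5.47, Sdf2l1 3.99, Manf 3.61, Hspa5 3.53 and Pdia4 2.45 times. Atf6 was at 1.06 and Ern1 at 0.761 times that median, and Xbp1 at 1.35 times was inside the range of the others. Pancreatic markers summed to 0 CPM in this liver. In other livers singled out here for high values they summed to 314 CPM (DDC+HFD animal 37), 92.8 CPM (DDC 0D animal 7) and 17.8 CPM (DDC+Cont animal 25). The part of pancreatic transcripts in those values was not tested.
With animal 43 left out, DDC+EtOH against DDC+HFD had 7 genes lower and 1 higher (17.6% of all genes called), in place of 2 lower and 3 higher. Hsp90b1 (-0.49, adjusted p = 0.011), Calr (-0.47, adjusted p = 0.0113), Sel1l (-0.38, adjusted p = 0.0148), Creld2 (-0.93, adjusted p = 0.0486) and Pdia4 (-0.39, adjusted p = 0.0495) joined Xbp1 and Edem1, while P4hb stayed higher (0.36, adjusted p = 0.006, all by edgeR). The median of the 32 was then -0.23, with 21 of 32 values negative, against -0.04 with all livers. DDC+HFD animal 37, kept in that fit, was itself high in Hsp90b1 (1527 CPM), Calr (1180 CPM) and Pdia4 (596 CPM). With both animals left out, an alternative chosen after seeing the data, 3 genes were lower and 1 higher (15% of all genes called). Xbp1, Edem1, Sel1l (-0.34, adjusted p = 0.0427) and P4hb passed. Hsp90b1 (-0.35, adjusted p = 0.0557), Calr (-0.33, adjusted p = 0.0597), Pdia4 (-0.27, adjusted p = 0.19) and Creld2 (-0.80, adjusted p = 0.113) did not. The median of the 32 was then -0.17, with 20 of 32 values negative. In the 5 DDC+EtOH livers other than animal 43 Hsp90b1 read 526, 705, 729, 821 and 965 CPM, against a lowest, median and highest of 851, 964 and 1527 CPM in DDC+HFD livers. Creld2 read 10.3, 22.5, 24.2, 30.5 and 38.0 CPM in the 5, against 35.8, 43.6 and 67.1 CPM in DDC+HFD livers.

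**Figure D5:**
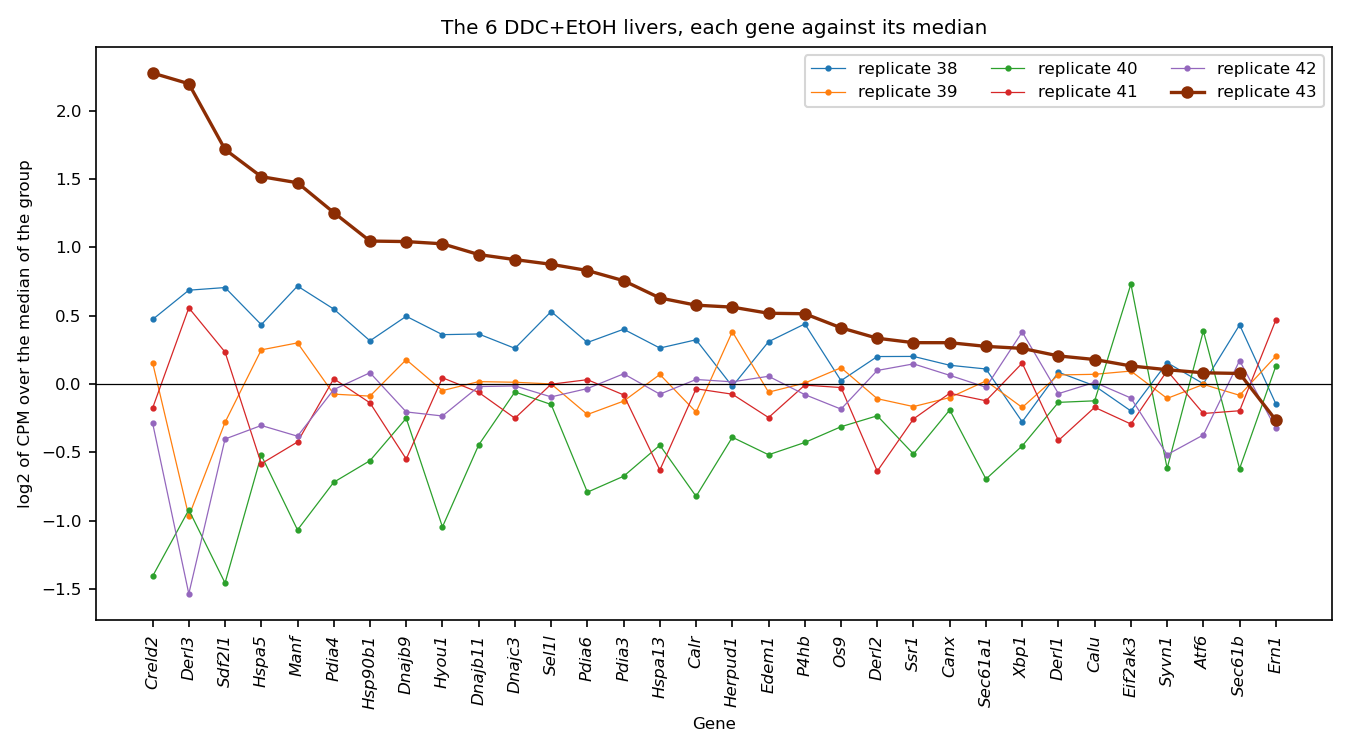
Each of the 32 genes (x axis, ordered by animal 43) in the 6 DDC+EtOH livers, as the log2 of its CPM over the median of the group (y axis). Animal 43, the thick line, lies above the other 5 livers for Creld2, Derl3, Sdf2l1, Hspa5 and Manf and falls among them at Xbp1, Syvn1, Atf6 and Ern1.

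Shared variation between animals was not limited to that group. In every group, the liver with the most Hspa5 also held the highest value of 16 to 25 of the other 31 genes. In DDC+Cont livers it was animal 25 (20 of 31), in DDC+HFD animal 37 (18 of 31), in EtOH animal 23 (19 of 31) and in DDC 0D animal 7 (18 of 31). The genes of 1 liver share its library and its depth, so these counts describe the libraries. The share of all genes that were highest in the same livers is not given here.

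Earlier DDC made no called difference within ethanol-fed livers. In DDC+EtOH against EtOH livers none of the 32 was called, where 6.69% of all genes were, and the median was -0.11 with 7 of 32 values positive. Without animal 43, Hspa5 was lower by 0.68 on the log2 scale (adjusted p = 0.0414) and Creld2 had a log2 fold change of -1.24 (adjusted p = 0.0286 by edgeR), where 7.71% of all genes were called. Casp12 was again higher, by 1.69 ± 0.30 (adjusted p = 0.000471).

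Targets of PERK and ATF4 outside the 32 were read in the ethanol contrasts too. The alternative fits, among them those without single livers or without the pancreatic libraries, were read for the 32 only. The counts below have no such check. Over all genes, 7.84% were called higher and 5.61% lower in EtOH against HFD livers. In DDC+EtOH against DDC+HFD livers these shares were 8.53% and 8.02%. In EtOH against HFD livers 6 of 18 rose and none fell (median 0.60), led by Vldlr, a lipoprotein receptor (2.09 ± 0.28), Psat1 of serine synthesis (2.94 ± 0.49) and the pseudokinase Trib3 (3.06 ± 0.57). In DDC+EtOH against DDC+HFD livers 8 of 18 rose and none fell (median 0.83), with Vldlr at 2.95 ± 0.27, Trib3 at 4.00 ± 0.55 and Psat1 at 2.48 ± 0.42. Ddit3, the factor CHOP, was higher by 1.74 ± 0.38 in DDC+EtOH livers (adjusted p = 0.00135 by edgeR). The 18 genes summed to 331, 502 and 982 CPM in DDC+EtOH livers (lowest, median and highest), against 350, 383 and 404 CPM in DDC+HFD livers, so the groups overlapped. In the same contrast 2 of 6 macrophage and 2 of 6 fibroblast markers were higher and 3 of 8 hepatocyte markers lower, and their part was not tested. Eif2ak3 itself was at -0.03 ± 0.15 in EtOH against HFD livers and 0.05 ± 0.14 in DDC+EtOH against DDC+HFD livers. Of the other lists, glycosylation genes gave 3 of 16 higher in each (Stt3b 0.42 ± 0.09 and 0.38 ± 0.08). Genes of the translocon gave none of 18 in either.

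Between the control livers of the 2 stages none of the 32 was called (Control 28D against Control 0D, 2.46% of all genes called). The median log2 fold change of the 32 was -0.13, against 0.01 over all genes, and 5 of the 32 values were positive. The same Control 28D livers are the reference for HFD and for DDC+Cont and enter the stage difference. The upward shifts in those contrasts are therefore not independent of each other or of this one. In 6 genes, Calr, Canx, Derl3, Pdia3, Pdia4 and Pdia6, every Control 28D liver lay below every Control 0D liver, as was so for 4.63% of all genes tested. Calr read 586, 635, 656, 660 and 697 CPM in Control 28D livers, against 771, 802, 806 and 823 CPM in Control 0D livers (log2 fold change -0.31 ± 0.16, adjusted p = 0.349 by edgeR). A fit to these 2 groups alone called 5 genes lower, Sdf2l1, Calr, Pdia3, Pdia4 and Pdia6, and 5.18% of all genes in either direction.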

How the data were processed

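Total liver RNA was sequenced from TruSeq mRNA libraries. The authors deposited raw read counts per gene symbol for each library. Per the submitters' processing notes the build was mm10 and the tools were GSNAP and DESeq2 1.12.3. The sources used here name no counting program, annotation or strand setting. Of the 32 genes 13 overlap an annotated gene on the other strand, whose reads could not be told apart without strand. The 5 tally rows (48.2 to 59.0% of reads) were left out.

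The 32 genes and the other lists were chosen with earlier results of these data known. Counts were fitted with edgeR 4.0.16 in R 4.3.3 (TMM factors, filterByExpr, robust quasi-likelihood F test, 1 coefficient per group, all 40 libraries), two-sided, Benjamini-Hochberg adjusted over 14355 genes and called under 0.05. Differences between effects were contrasts in the same fit. CPM values use TMM factors, and the SE is the fold change over the root of F. TMM factors were 1.22 to 1.23 in DDC 0D and 0.942 to 0.989 in Control 0D livers. P-values measure the spread between animals as labelled. Values given per library cover a panel chosen by role, with the 3 largest called changes each way in a comparison. Exon lengths came from GENCODE vM21. The fit was tested on simulated data. Alternatives were RLE factors, DESeq2 1.42.0, other filters, the groups alone, lane or clock terms, and leaving out libraries, of which leaving out DDC+EtOH animal 43 with DDC+HFD animal 37 was chosen after seeing the data.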

Additional observations from a re-analysis of the deposited data

Results flagged for a closer look

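In groups of 4 to 6 livers, 10 of 128 sets of values (16 genes in 8 groups) held a liver whose gap to the next was large for the range of its group by Dixon's criterion. The criterion flags about 1 in 20 sets of normally distributed values. The 16 genes were read as CPM in the same livers, so the 128 sets are not independent. The count of 10 therefore cannot be set against that rate. In DDC+EtOH animal 43 the flagged values were Hspa5 at 2691 CPM, Creld2 at 132 CPM and Derl3 at 19.4 CPM. In DDC+HFD animal 37 they were Hsp90b1 at 1527 CPM, Calr at 1180 CPM and Pdia4 at 596 CPM. The others were Eif2ak3 at 57.4 CPM in DDC+EtOH animal 40, Derl3 at 6.33 CPM in DDC+Cont animal 25, Calr at 538 CPM, the lowest of its group, in DDC+Cont animal 28, and Sdf2l1 at 22.2 CPM, also the lowest, in Control 0D animal 2.

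The DDC effect differed between the stages by the edgeR test of the difference for 12 genes. The log2 difference was 1.32 for Hspa5, 1.22 for Hyou1, 0.78 for Hspa13, 0.72 for Dnajb11, 1.31 for Manf, -0.30 for Calu, 0.84 for Xbp1, 1.03 for Herpud1, 1.05 for Sel1l, 1.52 for Syvn1, 0.69 for Edem1 and 0.55 for Derl2.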

How the results depend on the processing

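No paired analysis was possible because each animal number occurs in 1 group. Counts of called genes stayed within 1.5 times their values with RLE factors, DESeq2, other low-count filters and lane as a term. With the clock score as a term the count was 11 for DDC 0D against Control 0D (17 without it), 7 for DDC+Cont against DDC 0D (17) and 5 for the stage difference (12). A fit to the compared groups alone gave 4 for HFD against Control 28D (0), 5 for EtOH against HFD (3), 1 for DDC+EtOH against DDC+HFD (5), 5 for Control 28D against Control 0D (0) and 26 for the stage difference. Without pancreatic libraries DDC+EtOH against DDC+HFD had 1. Leaving out each library gave 13 to 18 for both the DDC 0D comparison with its control and that of DDC+Cont with DDC 0D, 2 to 3 for EtOH against HFD, 4 to 8 for DDC+EtOH against DDC+HFD, 0 to 2 for DDC+EtOH against EtOH and 9 to 15 for the stage difference, and 0 to 0 elsewhere. No fold change of a called gene changed sign in these alternatives. The cause of these shifts was not tested. Derl3, at under 3 CPM in most livers, is limited by depth.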
